A study of Mus musculus with 14 samples.

Results

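The genes described here are 10 imprinted genes with roles in embryonic growth: *Igf2*, *Igf2r*, *H19*, *Grb10*, *Dlk1*, *Meg3*, *Plagl1*, *Peg3*, *Mest* and *Ndn*. They were taken by symbol from the 23284 symbols of the gene counts, and all 10 were present. RNA was sequenced from mouse forelimb buds of 4 groups of NMRI embryos: 3 wild-type and 4 Smad4Δ/Δc embryos at E10.0, when they have 30 somites, and 3 wild-type and 4 Smad4Δ/Δc embryos at E10.5, with 35 somites. Wild type stands for Smad4+/+ PrxCreT/+ embryos and mutant for Smad4Δ/Δc PrxCreT/+ embryos, so that the Cre transgene was present in every embryo. Mutants carried a constitutive null *Smad4* allele in all cells and a conditional allele that the Prrx1 limb enhancer of the transgene deletes in the limb bud mesenchyme, which leaves ectoderm, endothelium, blood and immigrating muscle precursors with that allele. Both forelimb buds of 1 embryo made 1 replicate. The comparisons ask how the transcript levels of these genes differ when SMAD4, the common mediator of BMP and TGFβ signals, is lost from the mesenchyme, and how they change from E10.0 to E10.5.

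Imprinted genes are transcribed mainly or only from the allele inherited from 1 parent, because differentially methylated control regions laid down in the germ line keep the copies apart. Many of them act on fetal growth. The growth factor IGF2 signals through the IGF1 receptor and the insulin receptor, IGF2R carries it to the lysosome for degradation, and GRB10 dampens signalling from both receptors. *Igf2*, *Dlk1*, *Plagl1*, *Peg3*, *Mest* and *Ndn* are known to be expressed from the paternal allele, and *H19*, *Igf2r*, *Meg3* and, outside of neurons, *Grb10* from the maternal allele. The counts do not separate the parental alleles, so that they measure the summed transcript level and not imprinting itself. In these bulk samples, fewer cells of a type and less RNA per cell cannot be told apart.

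Between 34066930 and 61691258 reads per embryo were counted on genes, which gave 1829 to 367243 reads per embryo for each of the 10 genes. *Smad4* stood at 152 to 169 CPM (counts per 1000000 reads on genes, normalized by TMM) in the 6 wild-type embryos and at 32.9 to 46.0 CPM in the 8 mutant embryos, and every library matched its label. The log2 fold change of *Smad4* was -2.01 at E10.0 (adjusted *P* = 3.49e-98, edgeR's exact test) and -2.16 at E10.5. In the mutant libraries numbered 4 and 5 at both stages, the ribosomal RNA precursor *Rn45s* took 1.72% to 8.05% of the reads, against 0.151% to 0.478% in the 10 other libraries. For the 10 genes, calls that were lost without these 4 libraries are given with and without them. So are the genotype comparisons of genes that separated these libraries from the other mutants at either stage. The mesenchymal markers *Prrx1*, *Prrx2*, *Tbx5*, *Msx1*, *Twist1*, *Hand2*, *Lhx9* and *Meis1* were all detected, and their summed level was 1379 to 1597 CPM in wild-type and 1141 to 1338 CPM in mutant embryos at E10.0, and 1589 to 1645 CPM against 1295 to 1374 CPM at E10.5. The part of this lower sum in the results below was not tested.

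Several of these genes took more reads than nearly all other genes of the limb bud. By reads, with no account of length, *H19* ranked between 2 and 4 among all genes in every embryo, *Igf2* between 3 and 8, *Mest* between 4 and 8, *Grb10* between 19 and 35 and *Peg3* between 69 and 165. Together the 10 genes took 1.69% to 1.86% of the reads in each embryo. Per kilobase of exon, the mean level in wild-type buds at E10.0 was 2738 CPM for *H19*, 1039 CPM for *Mest*, 785 CPM for *Igf2*, 195 CPM for *Grb10* and 71.5 CPM for *Peg3*. *Ndn* followed at 44.1, *Dlk1* at 25.2, *Igf2r* at 19.9, *Plagl1* at 10.6 and *Meg3* at 4.70 CPM per kilobase. *Dlk1* and *Igf2r* were neighbours within their spread and changed places at E10.5, with 17.9 for *Dlk1* and 18.3 CPM per kilobase for *Igf2r* in wild type. These levels per length are approximate, because the lengths are those of all annotated exons together while reads were counted on another annotation.

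*H19*, *Igf2*, *Mest* and *Meg3* are also hosts of microRNAs, and the counts are those of the host and not of the mature RNA, which a polyA library does not measure. Arms of 4 such microRNAs, from RefSeq with build GRCm38.p6, are shown because they are products of the loci described here, and no seed (capitals, bases 2 to 8) is shared among them.
miR-675-5p of *H19*: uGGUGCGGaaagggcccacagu
miR-483-5p of *Igf2*: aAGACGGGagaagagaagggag
miR-335-5p of *Mest*: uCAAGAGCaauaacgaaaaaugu
miR-770-5p of *Meg3*: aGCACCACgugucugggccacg

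**Figure D1:**
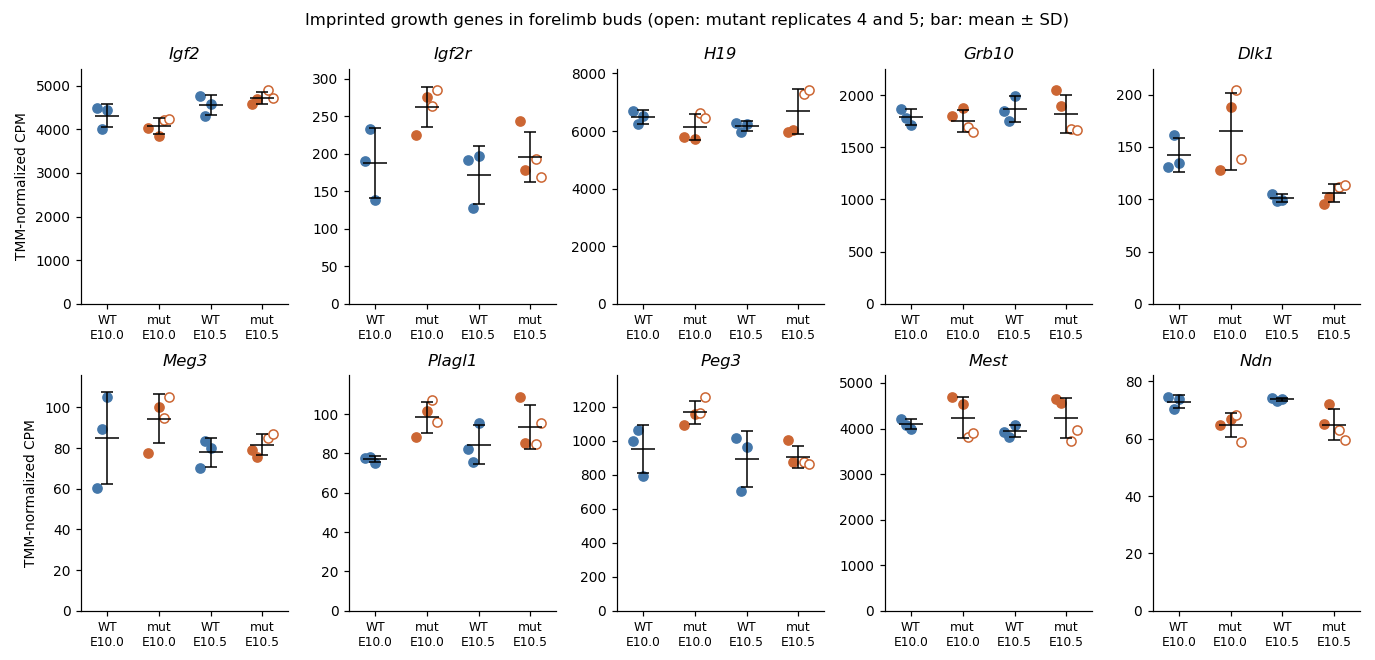
TMM-normalized CPM (vertical axis, from 0) of the 10 imprinted genes in each embryo, for wild-type (WT, n = 3) and Smad4Δ/Δc (mut, n = 4) embryos of both stages. Each point is 1 embryo, open points are mutant replicates 4 and 5, and bars give the mean ± SD; *Plagl1* was higher in all 4 mutants than in all 3 wild types at E10.0, and *Dlk1* was lower in all embryos at E10.5 than in all embryos of the same genotype at E10.0.

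Loss of *Smad4* was accompanied by a rise of 2 of the 10 genes at E10.0, *Igf2r* and *Plagl1*, and of none at E10.5. The *Igf2r* groups overlapped and its call was lost in several fits, as given below. For neither gene was a difference between the stages shown. A gene was counted as differentially expressed (DEG) when the adjusted *P* did not exceed 0.1 and the fold change was 1.2 or more in either direction, by edgeR's exact test over 12393 genes with Benjamini-Hochberg adjustment. By these criteria 6.61% of all genes tested were DEGs at E10.0, and 3.73% were at E10.5. The *P* before adjustment was under 0.05 for 4 of the 10 genes at the earlier stage and for 1 at the later stage, against 17.7% and 10.2% of all genes. All mutants lay outside of the wild-type range for 3 of the 10 genes at E10.0, *Plagl1*, *Peg3* and *Ndn*, against 17.8% of all genes tested, and for 1 at E10.5, *Ndn*, against 13.0%. The median log2 fold change of the 10 genes was 0.10 for E10.0 and 0.067 for E10.5, and that of all genes was -0.017 and -0.010. The embryos of a stage and genotype are separate animals, and values below are listed for wild-type replicates 1, 2 and 3, for mutant replicates 1, 3, 4 and 5 at E10.0 and for mutant replicates 1, 2, 4 and 5 at E10.5.

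**Figure D2:**
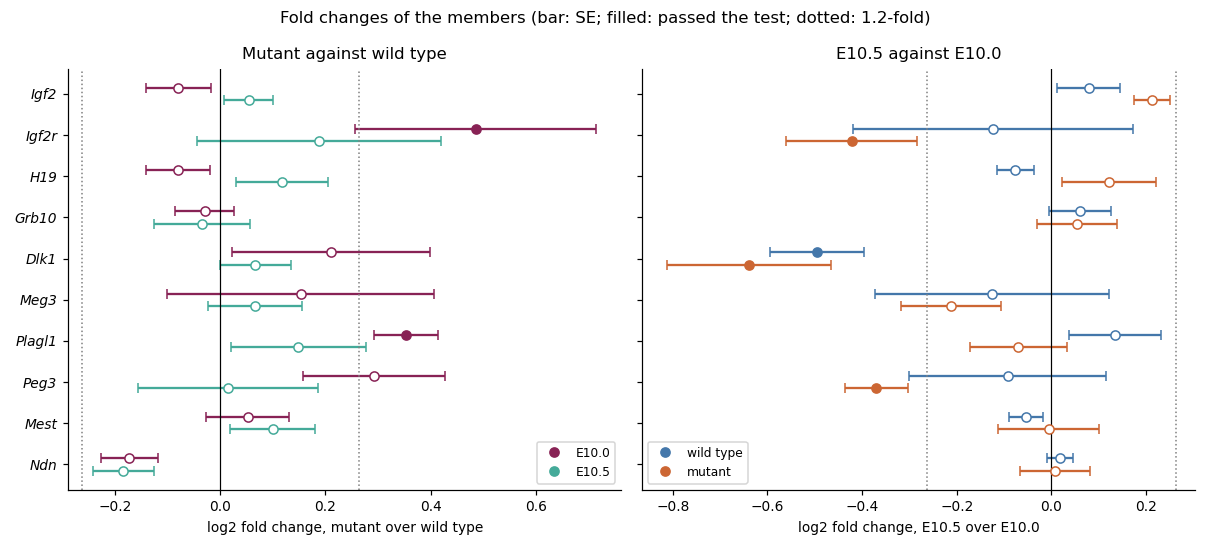
Log2 fold changes (horizontal axis) of the 10 genes between genotypes at each stage (left) and between stages in each genotype (right), with bars for the SE from the replicates. Filled points passed the test and dotted lines mark a 1.2-fold change: *Igf2r* and *Plagl1* at E10.0 on the left, and *Dlk1* in both genotypes with *Igf2r* and *Peg3* in mutants on the right.

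*Igf2* (chr7:149836673-149852721, minus strand, mm9), the fetal growth factor, differed little between genotypes. At E10.0 it stood at 4479.6, 4005 and 4449 CPM in wild type and at 4024, 3848, 4208 and 4243 CPM in mutants, and the groups overlapped. At E10.5 it stood at 4769.6, 4315 and 4573 CPM in wild type and at 4575, 4702, 4904 and 4726 CPM in mutants, again with overlap. The log2 fold change was -0.079 (SE 0.0615, adjusted *P* = 0.661, exact test) at the earlier stage and 0.054 (SE 0.0467, adjusted *P* = 0.933) at the later one, smaller than the 1.2-fold threshold at both stages. Without mutant replicates 4 and 5, which were the highest mutants at both stages, they were -0.12 (adjusted *P* = 0.355) and 0.037 (adjusted *P* = 0.888). Between stages, every mutant at E10.5 was above every mutant at E10.0. That difference was 1.16-fold (log2 0.21, SE 0.0385, adjusted *P* = 0.0282, exact test; log2 0.24 and adjusted *P* = 0.0516 without replicates 4 and 5), which meets the *P* criterion but not the fold criterion. In wild type, the log2 difference between stages was 0.079 (adjusted *P* = 0.652) and the groups overlapped. *Igf2as*, on the opposite strand of *Igf2*, was counted at 71.9 CPM in wild type at E10.0, and since counting did not use strand, reads of the overlap cannot be told apart.

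*Igf2r* (chr17:12875272-12962530, minus strand), the mannose 6-phosphate receptor that removes IGF2, rose in mutants at E10.0. Its levels were 191, 233 and 139 CPM in wild-type embryos and 225, 276, 264 and 285 CPM in mutants, and mutant replicate 1 lay below wild-type replicate 2. The mean rose from 188 ± 47.2 to 263 ± 26.6 CPM (SD), a 1.40-fold difference (log2 0.49, SE 0.229, adjusted *P* = 0.0662, exact test). The lowest value was wild-type replicate 3, and without it the log2 fold change was 0.32 with an adjusted *P* of 0.523. The call was also lost without wild-type replicate 1 (adjusted *P* = 0.164), without mutant replicate 3 (0.126), without mutant replicate 5 (0.179) and without mutants 4 and 5 of both stages (0.112). Over 10 alternative fits the log2 fold change was 0.40 to 0.51 and the adjusted *P* 0.0266 to 0.154, with 6 that passed. At E10.5, *Igf2r* stood at 192, 128 and 197 CPM in wild type and at 244, 179, 193 and 169 CPM in mutants. These groups overlapped, and the log2 fold change of 0.19 (SE 0.232) did not pass the test (adjusted *P* = 0.849, exact test). The difference between the stages did not pass either (log2 -0.30, SE 0.326, adjusted *P* = 0.951, quasi-likelihood test of the interaction). From E10.0 to E10.5, *Igf2r* fell by 0.42 on the log2 scale in mutants (SE 0.138, adjusted *P* = 0.0333, exact test), with mutant replicate 1 of E10.5 inside the range of E10.0. This call was lost with the replicate number as a block (log2 -0.43, adjusted *P* = 0.123, quasi-likelihood test), without mutant replicate 2 of E10.5 (adjusted *P* = 0.119), without replicate 5 of E10.5 (adjusted *P* = 0.128) and without both replicates 4 and 5 of each stage (log2 -0.24, adjusted *P* = 0.542, the highest of the 10 alternative fits, against 0.00557 in the lowest). In wild type the log2 difference between stages was -0.12 (adjusted *P* = 0.745). *Airn*, the long noncoding RNA antisense to *Igf2r* that silences the paternal allele, was counted at 5.08 CPM in wild-type and 6.35 CPM in mutant buds at E10.0 (adjusted *P* = 0.399, exact test).

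The RefSeq start sites of *Igf2r*, *Plagl1*, *Dlk1* and *Peg3*, the genes that passed a test, are shown here by the 250 bases before each start, in which 3 short motifs were searched on both strands. These were CAGAC, the core of SMAD binding elements, TGCCGC, the letters read by the imprint guardian ZFP57 when methylated, and AANATGGC, the letters of YY1 sites, with no overlap among the hits shown. Of 32851 mouse promoter windows of RefSeq (GRCm38.p6), 42.2% held CAGAC, 8.68% TGCCGC and 3.91% AANATGGC. Start sites were listed for 9 of the 10 genes, with 16 windows, as some genes had several. CAGAC was present in 8 of these windows, from 5 genes. TGCCGC was present in 4, from 3 genes (*Meg3*, *Plagl1* and *Mest*), and the *Mest* windows that held it overlapped each other. AANATGGC was present in none. Each sequence was matched to a unique place in mm9, is printed 5′ to 3′ on the strand of the gene, and has the motif letters of either strand in capitals. A match is a description of these letters and not of a bound site.
*Igf2r* (chr17:12962573-12962822, minus strand): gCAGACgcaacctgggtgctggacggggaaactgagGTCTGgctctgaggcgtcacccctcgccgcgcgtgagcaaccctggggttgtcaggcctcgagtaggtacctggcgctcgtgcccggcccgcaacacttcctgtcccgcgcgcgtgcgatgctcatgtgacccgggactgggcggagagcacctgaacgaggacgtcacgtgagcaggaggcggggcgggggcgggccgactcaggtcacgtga
*Plagl1* (chr10:12810388-12810637, plus strand): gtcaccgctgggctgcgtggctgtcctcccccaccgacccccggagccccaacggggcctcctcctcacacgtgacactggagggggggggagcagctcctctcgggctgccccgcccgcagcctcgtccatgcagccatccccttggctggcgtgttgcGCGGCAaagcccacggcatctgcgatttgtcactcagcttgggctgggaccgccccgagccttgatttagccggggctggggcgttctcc
*Dlk1* (chr12:110690783-110691032, plus strand): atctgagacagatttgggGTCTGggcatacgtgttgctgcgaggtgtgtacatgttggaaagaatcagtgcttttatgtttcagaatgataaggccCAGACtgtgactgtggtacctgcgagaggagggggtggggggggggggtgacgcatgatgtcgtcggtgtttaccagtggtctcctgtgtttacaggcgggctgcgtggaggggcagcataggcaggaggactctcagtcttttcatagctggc
*Peg3* (chr7:6683131-6683380, minus strand): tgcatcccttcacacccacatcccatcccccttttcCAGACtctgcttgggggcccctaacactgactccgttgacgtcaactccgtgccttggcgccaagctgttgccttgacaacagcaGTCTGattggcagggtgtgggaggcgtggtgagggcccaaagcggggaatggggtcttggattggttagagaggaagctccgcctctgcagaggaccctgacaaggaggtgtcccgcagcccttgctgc
The *Igf2r*, *Dlk1* and *Peg3* windows each held CAGAC on both strands, and the *Plagl1* window held TGCCGC on the strand opposite to the gene and no CAGAC.

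*H19* (chr7:149761434-149764048, minus strand), the maternally expressed noncoding RNA that shares enhancers with *Igf2*, took the most reads of the 10 genes in every embryo. Its values at E10.0 were 6711, 6243 and 6531 CPM in wild type and 5805, 5711, 6617 and 6439.7 CPM in mutants. At E10.5 they were 6274, 5965 and 6246 CPM in wild-type and 5967, 6049, 7289 and 7426 CPM in mutant buds. The groups overlapped at both stages, with log2 fold changes of -0.08 (adjusted *P* = 0.720, exact test) and 0.12 (adjusted *P* = 0.811). Within the mutants, replicates 4 and 5 were the highest at both stages. The other mutants were below the wild-type range at E10.0 (5711 and 5805 CPM) and within it at E10.5 (5967 and 6049 CPM), and without replicates 4 and 5 the log2 fold change was -0.16 (adjusted *P* = 0.147) at the earlier stage and -0.026 (adjusted *P* = 0.923) at the later one.

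*Grb10* (chr11:11830511-11938686, minus strand), the adaptor that dampens insulin and IGF receptor signalling, had overlapping genotype groups at both stages. It was counted at 1867, 1785 and 1713 CPM in wild-type and 1799, 1876, 1694 and 1643 CPM in mutant buds of E10.0. At E10.5 wild types had 1846, 1751 and 1997 CPM and mutants 2050.3, 1893, 1674 and 1666 CPM. The log2 fold changes were -0.029 (adjusted *P* = 0.916, exact test) and -0.034 (adjusted *P* = 0.976). Mutant replicates 4 and 5 were the lowest at both stages, and without them the sign turned, to 0.056 (adjusted *P* = 0.692) and 0.091 (adjusted *P* = 0.664). Between stages, *Grb10* differed by 0.06 on the log2 scale in wild type (adjusted *P* = 0.787) and by 0.055 in mutants (adjusted *P* = 0.733).

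*Dlk1* (chr12:110691033-110701546, plus strand), a transmembrane Notch-related protein of progenitor cells, fell from E10.0 to E10.5 in both genotypes. In wild type it went from 131, 161 and 135 CPM at E10.0 to 105, 98.2 and 99.5 CPM at E10.5. Mutants went from 128, 188, 205 and 139 CPM to 95.2, 102, 112 and 114 CPM. In each genotype all embryos of the later stage lay below all embryos of the earlier stage. *Dlk1* fell by 0.50 on the log2 scale in wild type, to 0.710 times the E10.0 level (SE 0.0988, adjusted *P* = 0.0122, exact test). In mutants it fell by 0.64, to 0.642 times (SE 0.174, adjusted *P* = 7.42e-06, exact test). Without wild-type replicate 2 of E10.0, the log2 change in wild type was -0.40 with an adjusted *P* of 0.182, against 2.04e-06 to 0.0613 over the 10 alternative fits, while the fall in mutants passed the test without any 1 library and without replicates 4 and 5. The test of the difference between these falls gave an adjusted *P* of 0.963 (quasi-likelihood test of the interaction). Between genotypes the *Dlk1* groups overlapped at both stages, with log2 fold changes of 0.21 (adjusted *P* = 0.419, exact test) and 0.067 (adjusted *P* = 0.963). Without mutant replicates 4 and 5 they were 0.17 (adjusted *P* = 0.378, exact test) and -0.022 (adjusted *P* = 0.966), so that the sign at E10.5 turned.

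*Meg3* (chr12:110779211-110809936, plus strand), the maternally expressed noncoding RNA of the *Dlk1* locus, varied widely among embryos. At E10.0 wild types were at 60.3, 89.6 and 105 CPM, and mutants, at 77.7, 100.1, 94.9 and 105 CPM, lay within that range except for replicate 5. At E10.5 wild types were at 70.0, 83.7 and 79.9 CPM and mutants at 79.2, 75.5, 84.9 and 86.9 CPM, again with overlap. Neither genotype comparison of *Meg3* passed the test (log2 0.15 and 0.067, adjusted *P* = 0.624 and 0.965, exact test). Leaving out the mutants of high *Rn45s* share gave a log2 fold change of 0.082 at E10.0 (adjusted *P* = 0.777, exact test) and 0.00038 at E10.5. Between stages the log2 difference was -0.13 in wild type (adjusted *P* = 0.688) and -0.21 in mutants (adjusted *P* = 0.274), the latter at 0.0943 without mutant replicate 1 of E10.0 and 0.179 to 0.559 over the 10 alternative fits.

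*Plagl1* (chr10:12810497-12851500, plus strand), a zinc finger transcription factor known to activate other imprinted genes, had the lowest adjusted *P* between genotypes of the set. At E10.0 it stood at 77.6, 78.1 and 75.2 CPM in wild type and at 88.4, 101, 107 and 96.2 CPM in mutants, and all mutants were above all wild types. The mean rose from 77.0 ± 1.54 to 98.3 ± 7.91 CPM (SD), or 1.28-fold (log2 0.35, SE 0.0604, adjusted *P* = 0.0239, exact test). *Plagl1* passed in all 10 alternative fits and in 13 of the 14 fits without 1 embryo, the exception being wild-type replicate 3 of E10.0 (log2 0.35, adjusted *P* = 0.166). Over the 10 alternatives its adjusted *P* was 0.0106 to 0.0725. At E10.5 it stood at 82.4, 75.6 and 95.3 CPM in wild type and at 109, 85.5, 84.7 and 95.5 CPM in mutants. These groups overlapped and the log2 fold change of 0.15 (SE 0.128) did not pass (adjusted *P* = 0.735, exact test). The difference between the stages was itself tested and did not pass (log2 -0.20, SE 0.141, adjusted *P* = 0.950, quasi-likelihood test of the interaction), so that a loss of the *Plagl1* difference at E10.5 is not shown.

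*Peg3* (chr7:6656603-6683132, minus strand), a large zinc finger protein of the growth network, fell with stage in mutants. Wild types of E10.0 were at 999.8, 1063 and 793 CPM and mutants at 1089, 1158, 1159 and 1257 CPM. All mutants were above all wild types, but the 1.22-fold difference (log2 0.29, SE 0.136) did not pass (adjusted *P* = 0.148, exact test). It passed narrowly in DESeq2 (adjusted *P* = 0.0999), without wild-type replicate 2 of E10.0 (0.0995) and without wild-type replicate 2 of E10.5 (0.0624). Over the 10 alternative fits the log2 fold change was 0.13 to 0.31 and the adjusted *P* reached 0.353. Over the 14 fits without 1 embryo the log2 fold change was 0.19 to 0.38 and the adjusted *P* reached 0.675. Without mutants 4 and 5 it was 0.26 on the log2 scale (adjusted *P* = 0.197, exact test). At E10.5, *Peg3* stood at 1013, 704 and 962 CPM in wild type and at 1000.3, 877, 872 and 860.1 CPM in mutants, with overlap (log2 0.015, adjusted *P* = 0.996, exact test). Leaving out mutants 4 and 5 gave a log2 fold change of 0.083 there (adjusted *P* = 0.839, exact test). From E10.0 to E10.5, *Peg3* fell by 0.37 on the log2 scale in mutants, with every later embryo below every earlier one (SE 0.0663, adjusted *P* = 0.00724, exact test). Without replicates 4 and 5 of both stages the log2 change was -0.25 with an adjusted *P* of 0.293, the highest of the 10 alternative fits (lowest 0.00143). The log2 difference in wild type was -0.092 (SE 0.208, adjusted *P* = 0.737), and the difference between genotypes in this change did not pass (adjusted *P* = 0.950, quasi-likelihood test of the interaction).

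*Mest* (chr6:30673547-30698457, plus strand), an abundant transcript of embryonic mesoderm whose product resembles hydrolases, had a wider range in mutants than in wild type. Wild types of E10.0 stood at 4203, 4080.0 and 3987 CPM and mutants at 4695, 4546, 3817 and 3905 CPM. For E10.5 the values were 3929.6, 3814 and 4083 CPM and 4640.3, 4553, 3737 and 3966 CPM. The mutants with a low *Rn45s* share lay above all wild types of their stage, while replicates 4 and 5 lay below all wild types at E10.0 and, for replicate 4, also at E10.5. The log2 fold changes over all mutants were 0.052 (adjusted *P* = 0.842, exact test) and 0.10 (adjusted *P* = 0.882). Without replicates 4 and 5 they were 0.19 (adjusted *P* = 0.0673) and 0.23 (adjusted *P* = 0.0630), which meets the *P* criterion but not the 1.2-fold criterion, so that the genotype comparison of *Mest* depends on these libraries. *Copg2*, which overlaps the end of *Mest* on the other strand, was at 89.0 CPM in wild type at E10.0.

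*Ndn* (chr7:69493163-69494814, plus strand), the gene of the growth-restraining MAGE protein necdin, was the only one of the 10 whose genotype groups did not overlap at either stage. Wild types had 74.6, 70.3 and 73.9 CPM and mutants 64.8, 66.9, 68.3 and 58.8 CPM at E10.0. At E10.5 wild types had 74.3, 73.3 and 73.9 CPM and mutants 65.2, 72.1, 62.9 and 59.6 CPM, so that all mutants were lower. The log2 fold changes were -0.17 (SE 0.0539, *P* = 0.0455, adjusted *P* = 0.271, exact test) and -0.18 (SE 0.0574, *P* = 0.0332, adjusted *P* = 0.405, exact test). Neither met the adjusted *P* or the 1.2-fold criterion, and *Ndn* was not a DEG in any alternative fit. Leaving out the mutants of high *Rn45s* share gave *Ndn* log2 fold changes of -0.13 at E10.0 (adjusted *P* = 0.290, exact test) and -0.095 at E10.5 (adjusted *P* = 0.646). Between stages its means differed by 0.018 on the log2 scale in wild type and 0.0068 in mutants.

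Across stages, 1 of the 10 genes fell in wild type (*Dlk1*) and 3 fell in mutants (*Dlk1*, *Igf2r* and *Peg3*), while no gene of the set rose past both criteria. Of all genes tested, 10.1% changed with stage in wild type and 19.2% in mutants. Stages did not overlap for 1 of the 10 genes in wild type, *Dlk1*, against 37.0% of all genes, and for 3 in mutants, *Igf2*, *Dlk1* and *Peg3*, against 20.0%. The median log2 change of the 10 genes was -0.065 in wild type and -0.038 in mutants, and that of all genes -0.0086 and -0.0050. No gene of the set passed the interaction of stage and genotype by edgeR's quasi-likelihood test, and none had a *P* under 0.05 before adjustment or passed in DESeq2, against 0.186% of all genes that passed and 5.76% with a *P* under 0.05. The genotype comparisons share their embryos with the stage comparisons, so that their values are not independent: the mutants of E10.0, which stood high for *Igf2r* and *Peg3*, enter both.

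Ratios within an embryo placed the genes of a locus or pathway side by side, as a description with no test. *Igf2* to *H19*, which lie next to each other, had a mean ratio ± SD of 0.663 ± 0.0201 in 3 wild types and 0.665 ± 0.0241 in 4 mutants of E10.0, and of 0.739 ± 0.0193 and 0.713 ± 0.0695 in those of E10.5. *Meg3* to *Dlk1* had ratios of 0.598 ± 0.163 and 0.590 ± 0.127 at the earlier stage and of 0.773 ± 0.0979 and 0.772 ± 0.0410 at the later one. The genotype means of *Meg3* to *Dlk1* differed by less than either SD at both stages, and those of *Igf2* to *H19* did so at E10.0, while at E10.5 they differed by more than the wild-type SD and less than the mutant SD. *Igf2* to *Igf2r*, ligand over clearance receptor, was 24.2 ± 7.44 in wild-type and 15.6 ± 1.69 in mutant buds at E10.0. For the later stage these ratios were 27.3 ± 5.69 and 24.6 ± 4.04. The E10.0 ranges, 17.2 to 32.0 in wild type and 13.9 to 17.9 in mutants, overlapped.

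Among the mutants, the libraries with a high precursor share differed from the others in the abundant genes of the set. *H19* and *Igf2* were higher and *Grb10* and *Mest* lower in replicates 4 and 5 than in the other mutants at both stages, without overlap. For *H19*, the gap between these libraries was widest at E10.5, where the lower of replicates 4 and 5 was at 7289 CPM and the higher of the others at 6049 CPM. These are 4 of the 10 genes (40%), and 36% of the 12393 genes tested separated the same libraries the same way at both stages. The share among the 10 genes was near that among all genes. The part of the precursor share in these differences was not tested.

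**Figure D3:**
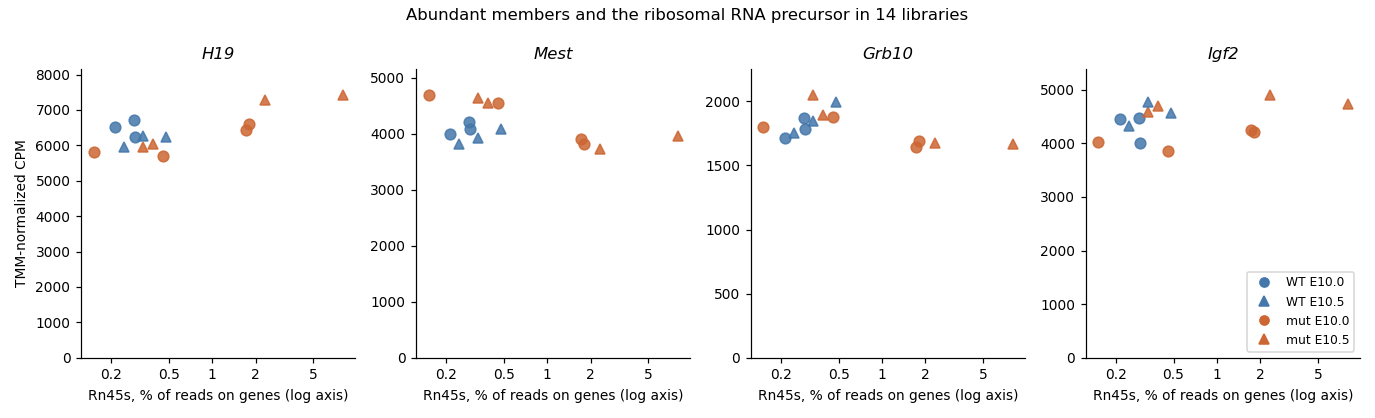
TMM-normalized CPM (vertical axis, from 0) of *H19*, *Mest*, *Grb10* and *Igf2* against the share of *Rn45s* in the reads on genes (horizontal log axis) in 14 libraries. Circles are E10.0 and triangles E10.5, blue wild type and orange mutant; the 4 mutant libraries at 1.72% or more stand above the other mutants of their stage for *H19* and below them for *Mest* and *Grb10*.

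*Igf2r*, *Grb10*, *Meg3* and *Peg3* have exons of at least 8000 bases together, and libraries differed in the level of such long genes. The median log2 deviation of 1378 long genes from the mean of all libraries, minus that of 2095 genes of at most 2000 bases, ran from -0.192 to 0.257. It was lowest in wild-type replicate 3 of E10.0 (-0.192) and replicate 2 of E10.5 (-0.142). These 2 libraries were the lowest of all 14 for *Igf2r* and *Peg3*, and the lowest wild types of their stage for *Grb10*, while for *Meg3*, the longest of the 10, they were the highest wild types of their stage. Wild-type replicate 2 of E10.0 had a similar balance (-0.125), but *Igf2r* and *Peg3* stood above their means there, by 0.20 and 0.125 on the log2 scale. At E10.0 the balance itself separated the genotypes. It was -0.087, -0.125 and -0.192 in wild-type replicates 1, 2 and 3, and 0.079, 0.0083, -0.0078 and 0.128 in mutant replicates 1, 3, 4 and 5. At E10.5 the genotypes overlapped in this balance. The part of the balance in the higher *Igf2r* and *Peg3* of E10.0 mutants was not tested beyond the fit that follows. With exon length fitted in each library, the log2 fold change of *Igf2r* at E10.0 was 0.40 with an adjusted *P* of 0.154 (quasi-likelihood test, 0.148 without the length fit), and that of *Plagl1* still passed. *Peg3* did not pass between genotypes at E10.0 with the length fit, nor in the exact test.

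**Figure D4:**
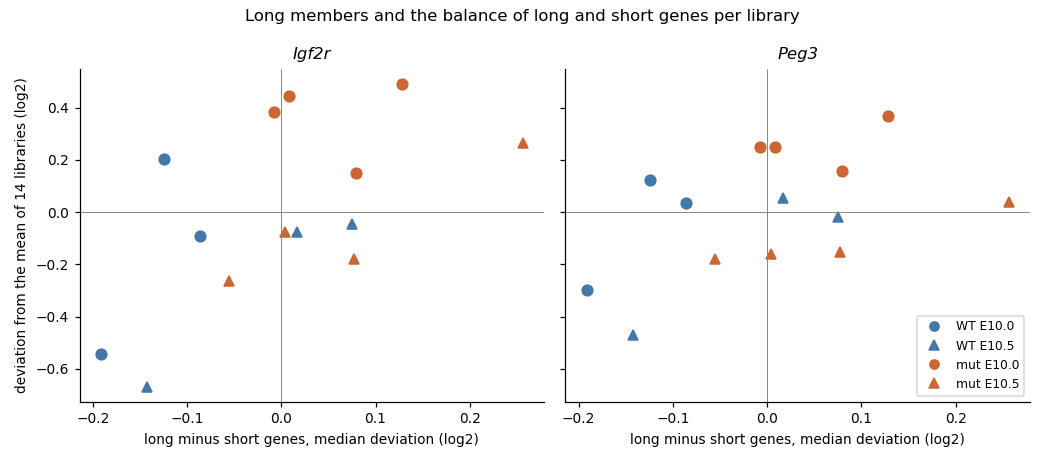
Log2 deviation of *Igf2r* (left) and *Peg3* (right) from their mean over 14 libraries (vertical axis) against the median deviation of long genes minus that of short genes in the same library (horizontal axis, log2). Circles are E10.0 and triangles E10.5, blue wild type and orange mutant; the wild-type libraries at -0.192 and -0.142 are the lowest for both genes, and the wild-type library at -0.125 is above the mean for both.

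The other genes of the IGF2 pathway were listed apart from the 10. Of 18 genes for ligands, receptors, binding proteins and signal mediators, 17 were tested, and *Irs1* and *Igfbp3* rose and *Igfbp4* fell in mutants at both stages. Among all genes tested, 6.61% passed at E10.0 and 3.73% at E10.5. *Irs1*, the docking protein of the insulin and IGF1 receptors, rose from 36.4 to 48.6 CPM at E10.0 (log2 0.42, SE 0.123, adjusted *P* = 0.0164, exact test) and from 47.3 to 63.6 CPM at E10.5 (log2 0.43, adjusted *P* = 0.0127). Its call was lost at E10.0 without wild-type replicate 3 and at E10.5 without wild-type replicate 2. *Igfbp3*, which binds IGFs outside of the cell, rose by 0.44 and 0.53 on the log2 scale (adjusted *P* = 0.00549 and 0.000354, exact test). *Igfbp4*, another IGF binding protein, fell from 600.3 to 481 CPM and from 643 to 493 CPM (log2 -0.32 and -0.38, adjusted *P* = 0.00908 and 0.000658, exact test). Its call at E10.0 was lost with exon length fitted in each library. *Igf1r*, the receptor through which IGF2 acts, did not pass at either stage (log2 0.20 and 0.06). With stage, *Igf1*, the second ligand, rose from 24.3 to 74.8 CPM in wild type and from 33.1 to 63.2 CPM in mutants (adjusted *P* = 1.18e-07 and 0.000491, exact test). *Irs1* rose with stage in both genotypes too, *Igf2bp1* fell in wild type (log2 -0.34), and *Igfbp2* and *Igfbp3* rose in mutants (log2 0.44 and 0.37). Among all genes tested, 10.1% passed with stage in wild type and 19.2% in mutants. The median log2 fold change of the 17 genes between genotypes was 0.098 for E10.0 and 0.030 for E10.5.

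Of the other imprinted genes, *Asb4* fell in mutants at both stages and *Nnat* rose at E10.5, each in all 10 alternative fits and in all 14 fits without 1 embryo. Of 17 further paternally expressed genes tested, 1 rose in mutants at E10.0 (*Rtl1*) and 3 rose (*Nnat*, *Sfmbt2*, *Rtl1*) and 1 fell (*Slc38a4*) at E10.5. *Rtl1*, the retrotransposon-derived gene between *Dlk1* and *Dio3*, was counted with 52 to 101 reads per embryo at E10.0 (log2 0.65, adjusted *P* = 0.0906, exact test), and its counts hold both directions of transcription. It passed in 5 of 10 alternative fits at E10.0 and 6 at E10.5, *Sfmbt2* in 8 and *Slc38a4* in 2. Of the 14 fits without 1 embryo, *Rtl1* passed in 8 at E10.0 and 9 at E10.5, *Sfmbt2* in 11 (lost without mutant replicate 5 or wild-type replicate 2 or 3 of E10.5) and *Slc38a4* in 4. *Nnat*, a small membrane proteolipid gene, rose from 939 to 1264 CPM at E10.5 (log2 0.43, SE 0.0618, adjusted *P* = 0.000315, exact test). Of 18 further maternally expressed genes tested, *Ppp1r9a* rose at E10.0 (log2 0.39, adjusted *P* = 0.0312, exact test), and *Asb4* was the only one of them to fall. The *Ppp1r9a* call was lost without mutant replicate 5 or without wild-type replicate 1 or 3 of that stage. *Asb4*, an ankyrin and SOCS box gene beside *Peg10*, went from 806 to 520.2 CPM at E10.0 (log2 -0.63, SE 0.0999, adjusted *P* = 8.26e-07, exact test) and from 874 to 582 CPM at E10.5 (log2 -0.59, SE 0.103, adjusted *P* = 6.04e-06). Both lists together had 3 of 35 genes that passed at E10.0 (8.57%, against 6.61% of all genes) and 5 at E10.5 (14.3%, against 3.73%), of which *Rtl1* at E10.0 and *Rtl1*, *Sfmbt2* and *Slc38a4* at E10.5 did not pass without mutants 4 and 5 (adjusted *P* = 0.298 for the earlier stage, and 0.284, 0.147 and 0.253 for the later). None of the 10 genes reached a change of the size of *Asb4* between genotypes. The medians of these lists, 0.092 and 0.18 for paternal and -0.050 and -0.070 for maternal genes, stand beside 0.10 and 0.067 for the 10 genes. Some of the listed genes are imprinted in other tissues only.

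**Figure D5:**
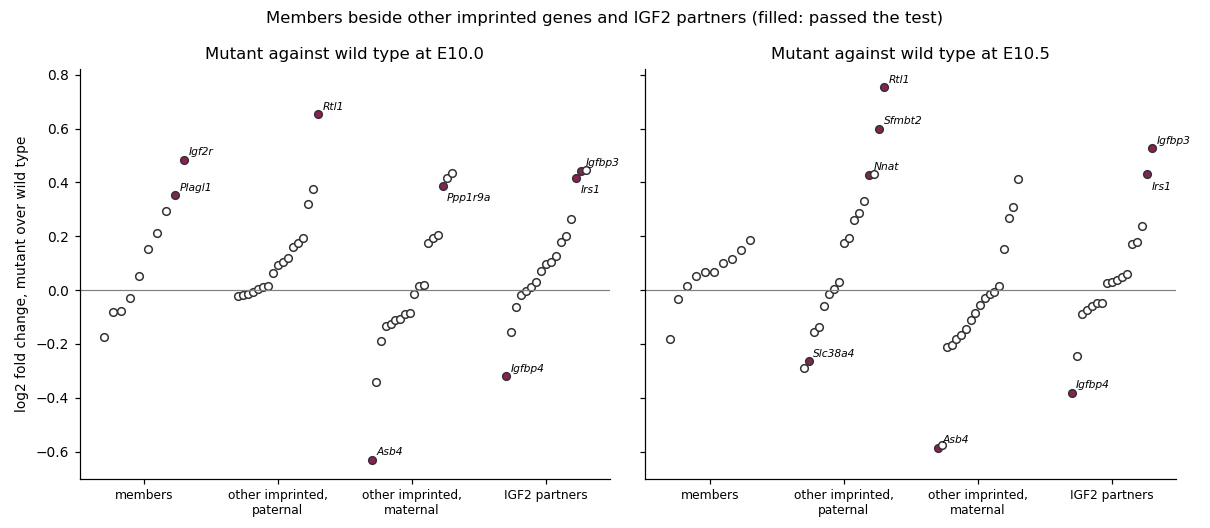
Log2 fold changes of mutant over wild type (vertical axis) at E10.0 (left) and E10.5 (right) for the 10 imprinted growth genes (members), other paternally and maternally expressed imprinted genes, and IGF2 partners, each point a gene and filled where it passed the test. *Asb4* lies below all of the 10 genes at both stages, at -0.63 and -0.59.

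With stage, 2 of the 35 other imprinted genes tested passed in wild type (5.71%, against 10.1% of all genes) and 8 in mutants (22.9%, against 19.2% of all genes), and none passed the interaction. *Cdkn1c*, the maternally expressed cell cycle inhibitor, rose in both genotypes, from 136 to 185 CPM in wild type (adjusted *P* = 0.00134, exact test) and from 126 to 223 CPM in mutants (adjusted *P* = 1.68e-16). *Gatm* rose in wild type (log2 0.70), and *Osbpl5* and *Peg13* rose in mutants (log2 0.62 and 0.36). *Peg10*, *Slc38a4*, *Rian*, *Zim1* and *Calcr* fell in mutants. Of these, *Rian* is transcribed downstream of *Meg3* and *Zim1* lies next to *Peg3*. *Zim1* fell by 0.47 on the log2 scale (SE 0.112, adjusted *P* = 0.000301, exact test) beside 0.37 for *Peg3*, and *Rian* by 0.39 (SE 0.207, adjusted *P* = 0.0318, exact test). The *Rian* call was lost without mutant replicate 3 of E10.0 or mutant replicate 4 or 5 of E10.5, that of *Gatm* without wild-type replicate 3 of either stage, and that of *Calcr* without mutant replicate 1 or 4 of E10.0, without 4 or 5 of E10.5, and without replicates 4 and 5 of both stages (log2 -0.50, adjusted *P* = 0.368). Of 17 tested neighbours of the 10 genes, *Rtl1* was the only one to differ between genotypes at either stage. With stage, *Tsga14*, near *Mest*, rose in wild type (log2 0.28), and in mutants *Tsga14*, *Phactr2*, near *Plagl1*, and *Cobl*, near *Grb10*, rose and *Rian* and *Zim1* fell. The *Tsga14* call in wild type was lost in 5 of the 14 fits without 1 embryo, namely without any wild type of E10.0 and without replicate 2 or 3 of E10.5. The *Cobl* call was lost without mutant replicate 4 or 5 of E10.0, without 2 or 5 of E10.5, and without replicates 4 and 5 of both stages (log2 0.46, adjusted *P* = 0.392), and that of *Phactr2* without mutant replicate 4 of E10.0 or 1 of E10.5.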

How the data were processed

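Per the labels and the study's methods, the authors aligned single-end reads of unstranded polyA libraries to mm9 with TopHat 2.0.13 and counted unique reads per refGene symbol with htseq-count, without strand. The deposited values are raw counts. Rows that name no gene stayed out, of which reads without a feature made up 6.18% to 9.86% and ambiguous reads 1.49% to 1.75% of these and gene reads together. Of 23284 symbols, 23166 were placed on a chromosome and 1041 on X, Y or M left out. The 12393 genes that reached 1 CPM in 3 or more of the 14 samples were normalized by TMM and compared with edgeR's exact test (prior 10 degrees of freedom, all samples). The interaction used its quasi-likelihood test. SEs come from replicate variances of log2(CPM + 1). The named genes are the 10 members and, per list, at most 4 passing genes per comparison, with neighbours. Members and lists were chosen with earlier results of these data known. Same-numbered embryos of the 2 genotypes correlated at -0.081 on average (4 pairs) and wild types of the 2 stages at -0.283 to -0.078, so that numbers did not pair them. The 3 same-numbered mutant pairs across stages correlated at 0.571, 0.611 and 0.269, and there the blocked value is given where it changes a call. Differently numbered mutants across stages correlated at 0.112 to 0.383 where both or neither had a high *Rn45s* share. Where only 1 of them had, they correlated at -0.587 to -0.174. Coordinates are from the GENCODE annotation of NCBIM37 (mm9). *H19* had no promoter entry. Alternatives are given in the closing section. Tests were tried on simulated data. Fits ran in edgeR 4.0.16 under R 4.3.3, alternatives also in DESeq2 1.42.0, and figures in Python 3.11.15 with matplotlib 3.10.9.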

Additional observations from a re-analysis of the deposited data

Results flagged for a closer look

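*Peg3* in mutant replicate 1 of E10.5, at 1000.3 CPM, stood apart from the other 3 mutants of that stage, which lay between 860.1 and 877 CPM. Its gap to the nearest mutant was 0.883 of the range of the 4 samples and above the 95% limit of Dixon's test. It was the only such sample for the 10 genes in 20 groups of 4 examined (the 10 genes in mutants of both stages), and chance flags about 1 in 20 groups.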

How the results depend on the processing

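No called fold change of the 10 genes reversed in any of 10 alternative fits or of 14 fits without 1 embryo, while 19 of 50 values, none of them called, changed sign somewhere. At E10.0, 2 genes of the set passed between genotypes, and 1 passed with the quasi-likelihood test, with the replicate block, with exon length fitted per library (chosen after seeing the data) and without mutants 4 and 5, in each case *Plagl1*, while DESeq2 gave 3. Fits without 1 embryo gave 0 to 3 genes at E10.0, 0 at E10.5, 0 to 1 with stage in wild type, 2 to 4 with stage in mutants and 0 for the interaction, and 0 passed at E10.0 without wild-type replicate 3. With stage in mutants, 3 genes passed and 1 (*Dlk1*) without mutants 4 and 5. Over all genes, the 819 DEGs at E10.0 became 2018 without mutants 4 and 5, 1961 with the replicate block and 254 to 1062 without 1 embryo (254 without wild-type replicate 3, 494 without mutant replicate 5). The 462 at E10.5 became 280 with the block and 286 to 516 without 1 embryo (286 without wild-type replicate 2). The 1256 with stage in wild type became 2004 with only the compared groups fitted and 484 to 1515 without 1 embryo (484 and 827 without wild-type replicates 2 and 3 of E10.0, 823 and 512 without those of E10.5), and no gene of the set passed there without wild-type replicate 2 of E10.0. The 2374 in mutants ranged from 1895 to 2732 without 1 embryo. The 23 of the interaction became 87 in DESeq2, 39 without a filter, 6 without mutants 4 and 5 and 7 to 34 without 1 embryo, the lowest without mutant replicate 5 of E10.5. The causes of these shifts were not tested, and the fits that left embryos out also had fewer samples. Under the block, *Igf2r* lost its calls at E10.0 (adjusted *P* = 0.153) and with stage in mutants (adjusted *P* = 0.123), and no other call of the set changed. RLE factors, X, Y and M genes kept, or *Rn45s* removed left each of these member counts as it was. Each of the 10 genes had 1829 or more reads per embryo, and counting error was not separated from the spread between embryos.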

Other observations

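Of 15 tested genes for DNA methylation and imprint maintenance, *Smchd1*, a chromatin protein of X inactivation and some imprinted clusters, rose in mutants at E10.0 from 190.4 to 251 CPM (log2 0.40, SE 0.104, adjusted *P* = 0.0212, edgeR's exact test; not passed without wild-type replicate 3), and none passed at E10.5. *Zfp57* and *Trim28*, which protect imprints together, did not pass at E10.0 (log2 -0.16 and -0.19, adjusted *P* = 0.548 and 0.183). The de novo methyltransferase gene *Dnmt3a* rose with stage in wild type (log2 0.31, adjusted *P* = 0.0234, exact test) and in mutants (log2 0.37, adjusted *P* = 0.000174), and *Dnmt3b* fell in mutants (log2 -0.31, adjusted *P* = 0.00139).

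Markers of other cell types moved with the groups in part. Of 8 mesenchymal markers, *Prrx1*, *Prrx2*, *Tbx5* and *Twist1* fell in mutants at E10.0 and *Prrx1*, *Prrx2* and *Twist1* at E10.5, with *Prrx2* at 88.3 against 43.8 CPM at E10.0. Of 5 tested muscle markers, *Myf5* and *Myog* rose at E10.0 and *Myog* fell at E10.5, at summed levels of 80.3 to 95.3 against 86.5 to 110.5 CPM and 94.0 to 111 against 75.5 to 103 CPM. Macrophage markers summed to 2.62 to 5.81 CPM in wild type and 6.15 to 8.16 CPM in mutants at E10.0, with *Ptprc* and *Cx3cr1* higher, and to 11.6 to 13.7 against 11.5 to 20.9 CPM at E10.5. Mesothelial markers summed to 6.96 to 10.2 against 13.4 to 24.8 CPM at E10.0 and to 9.997 to 12.9 against 5.76 to 9.41 CPM at E10.5, with *Wt1* and *Upk3b* higher and then lower. At E10.5 these 2 calls were not stable: *Wt1* passed in 6 and *Upk3b* in 5 of 10 alternative fits, and without mutants 4 and 5 their adjusted *P* was 0.193 and 0.36 (log2 -0.84 and -1.18). Of the mesenchymal calls, *Prrx1* passed in 3 of 10 alternative fits at the earlier stage and 7 at the later, and *Tbx5* in 5 at the earlier. No endothelial or erythroid marker passed between genotypes at either stage. The ectodermal *Krt5* fell at E10.0, in 8 of 10 alternative fits and 9 of 14 fits without 1 embryo. *Erbb3*, the only tested marker of neural crest, fell at E10.5, in 8 of 10 and 8 of 14, and not without mutants 4 and 5 (log2 -0.40, adjusted *P* = 0.182). *Ptprc* passed in 8 of 10 alternative fits and 10 of 14 fits without 1 embryo. The part of these cell types in the levels of the 10 genes was not tested.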
